A study of Mus musculus with 8 samples.

Results

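The ephrins, their Eph receptors, and the netrins with their receptors and relatives comprised 37 of the 18193 genes that the array's annotation names by a single symbol. They were taken by symbol: every symbol that starts with Epha, Ephb, Efna, Efnb or Unc5, together with Ntn1, Ntn3, Ntn4, Ntn5, Ntng1, Ntng2, Dcc, Neo1, Rgma and Rgmb. Of the 37, 21 were ephrins or Eph receptors and 16 were the others. One of the 16, Unc50, was caught by its letters only and is not a netrin receptor, and Unc5cl encodes an Unc5c-like protein without the netrin-binding extracellular part. The study profiled mouse cardiac Purkinje cells, the fast-conducting cells at the end of the ventricular conduction system, and ventricular myocytes on microarrays. Both cell types were sorted by FACS from the same 4 hearts after enzymatic digestion, which gave 4 Purkinje and 4 ventricular arrays. Every heart came from an adult male that carried Cntn2-EGFP, a-MHC-Cre and floxed-tdTomato on a background mixed from the strains 129S1, C57/B6 and CD1, so both groups shared the genotype and no heart lacked the reporters. EGFP follows Cntn2, a marker of the conduction system, and the a-MHC promoter drives Cre in cardiac myocytes. The RNA was amplified before hybridisation, and the values are MAS5 signals, a linear brightness scaled to a common level on each array.

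Ephrins are ligands anchored in the cell membrane. A-type ephrins are held by a lipid anchor and mostly bind EphA receptors, and B-type ephrins span the membrane and mostly bind EphB receptors, with EphA4 binding both kinds. Eph receptors are receptor tyrosine kinases, and because ligand and receptor both sit on cell surfaces, signalling needs contact between cells and can run into either of them. Netrins are secreted, laminin-related guidance proteins that attract growing axons through Dcc or neogenin and repel them through Unc5 receptors, and the RGM proteins are membrane-anchored ligands of neogenin that also act as BMP co-receptors. Outside the nervous system, ephrin-B2 and EphB4 mark arterial and venous endothelium, and Unc5b is known from endothelial tip cells.

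The libraries matched their labels. Cntn2 gave signals of 222.3 to 1256 on the Purkinje arrays and of 2.9 to 24 on the ventricular arrays, and 10 of 13 conduction system markers rose in Purkinje cells. Because the EGFP reporter follows Cntn2, and the marker list was chosen with earlier results of these data known, this check was partly fixed in advance. Cardiomyocyte genes such as Myh6 and Tnnt2 were high on all 8 arrays. Purkinje replicate 1 had the lowest Cntn2 signal of its group. Markers of some other cell types moved with the groups: the summed signal of 20 endothelial markers was 7875 to 19210 on the Purkinje arrays and 4306 to 12890 on the ventricular arrays, with none of the 20 at 0. The median signal over all probe sets was 36.1 to 42.9 in Purkinje cells and 28.2 to 32.3 in ventricular myocytes, and the ratio of 3' to 5' Gapdh signal, a measure of RNA integrity, was the higher of the pair in Purkinje cells for all 4 hearts (1.24 to 1.72 against 1.20 to 1.51). In such sorted pools, fewer cells of a type and less RNA per cell cannot be told apart.

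Of the 37 genes, 25 had a mean log2 signal above the limit for testing, a signal of about 19.9, and 12 lay below it. Where a gene had several probe sets, the one with the largest mean log2 signal stood for it, and differences are log2 signal in Purkinje cells minus ventricular myocytes. In limma's fit over all 12318 genes, with an adjusted p of 0.05 as the threshold, 2 of the 25 rose in Purkinje cells, Ephb1 and Unc5b, and 0 fell. That is 8% of the tested members, beside 1.94% of all genes higher and 1.02% lower (2.96% in either direction). At an unadjusted p under 0.05 there were 5 members higher and 2 lower, beside 12.8% and 9.2% of all genes (22% in either direction). With the heart as a block in the same fit, which compares the arrays of each heart, 7 members (28%) rose and 2 (8%) fell, beside 9.64% and 7.48% of all genes (17.1% in either direction). The 7 were Ephb1, Ephb3, Ephb4, Efnb1, Efnb2, Unc5b and Unc5c, and the 2 were Efnb3 and Epha4. Unc5c reached the limit for testing only through its Purkinje arrays, with a ventricular mean signal of 16.7. Without Unc50, 24 genes were tested with the same counts of calls. The shares of lower calls among the members stood near those of all genes.

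The choice of scaling moved these counts. The median log2 difference over all tested genes was 0.05 as deposited, -0.06 after quantile normalization and -0.35 after centring each array on its median. The medians of the 25 members were 0.25, 0.17 and -0.16. With the block, quantile normalization gave 3 members higher and 4 lower, and median centring gave 4 higher and 6 lower. Over all genes, the blocked split went from 1187 higher and 921 lower to 821 and 703 after quantile normalization and to 688 and 3812 after centring. Without the block it went from 239 higher and 126 lower to 119 and 36 after quantile normalization and to 222 and 2381 after centring. Under all 3 scalings with the block, 5 members passed: Ephb1, Efnb2 and Unc5b higher, and Efnb3 and Epha4 lower.

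**Figure D1:**
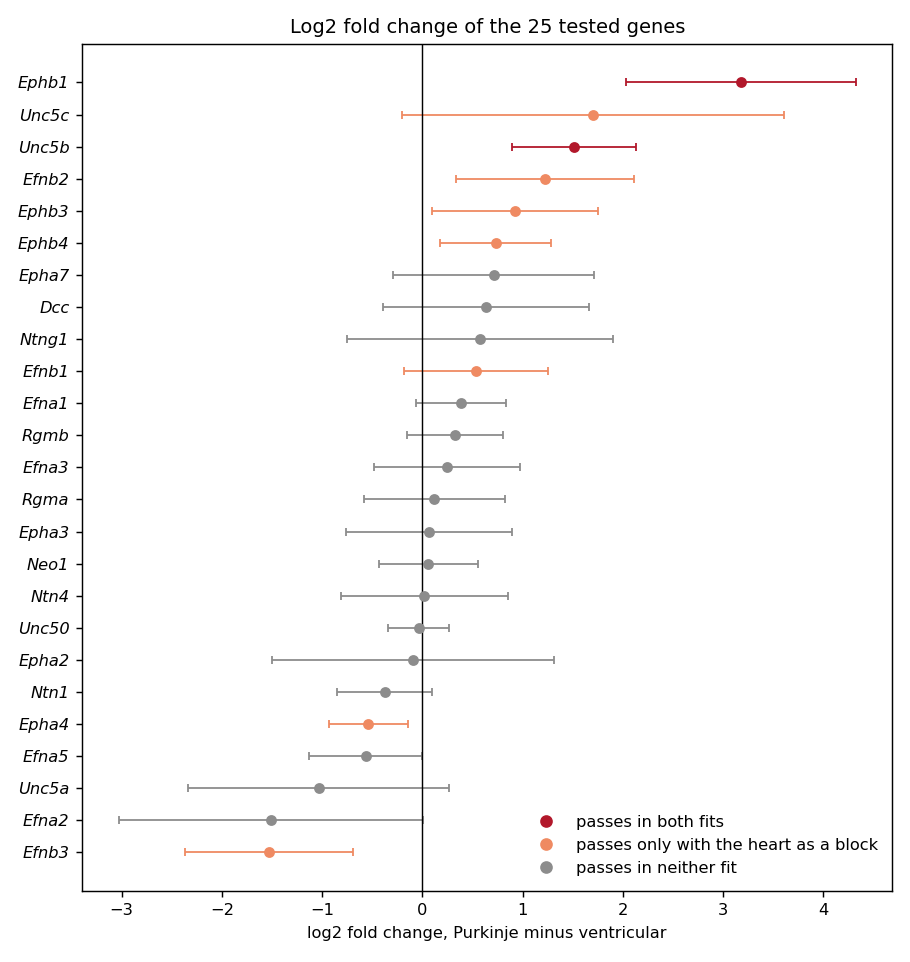
Log2 difference in signal, Purkinje cells minus ventricular myocytes, for the 25 tested genes, with bars for the 95% confidence interval of the fit without the heart block (4 arrays a group). Ephb1 lies farthest to the right at 3.18 and Efnb3 farthest to the left at -1.53; colours mark which genes passed the threshold without the block, only with it, or in neither fit.

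The EphB receptors, the kinases that bind B-type ephrins, all had higher signals in Purkinje cells where they could be tested. Ephb1, Ephb3 and Ephb4 were tested and the other one among the members, Ephb6, was below the limit, with signals of 1.4 to 14.3. Ephb2 was not among the members, so it was not examined here. Ephb1 passed without the block, and Ephb1, Ephb3 and Ephb4 passed with it.

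Ephb1 had the largest difference among the 25 tested members. Its signals were 136.1, 453.8, 962.4 and 836.8 in Purkinje replicates 1 to 4 and 68.5, 36.8, 67.3 and 43.6 in ventricular replicates 1 to 4. Every Purkinje array lay above every ventricular array, and Purkinje replicate 1 was the lowest of its group, as it was for Cntn2. The means were 597 ± 376 and 54.1 ± 16.2 (SD, n = 4 each). The log2 difference was 3.18 ± 0.52 (SE; 95% interval 2.03 to 4.32), a 9.06-fold higher geometric mean, with limma's adjusted p at 0.0140 without the block and 0.000700 with it. Heart by heart the log2 difference was 0.99, 3.62, 3.84 and 4.26, so heart 1 showed the direction at a smaller size. Without the block the call was lost when Purkinje replicate 3 (adjusted p = 0.0558) or ventricular replicate 4 (adjusted p = 0.0568) was left out. With the block it held when any 1 heart was left out, with adjusted p of 9.89e-09 to 0.0165. The authors' deposited table gives Ephb1 a ratio of 11.1 and an unadjusted p of 0.0638, from a paired test on the linear signals.

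Because Ephb1 and Unc5b were the members that passed in both fits, their promoter windows, 250 bases before to 50 bases after the annotated start, were searched for short cores bound by cardiac transcription factors: AGGTGT for T-box factors, GATAA for GATA factors and AAGTG for Nkx2-5, on both strands. The cores share no stretch that would make 1 match count as another. In the RefSeq table of build GRCm38.p6 the Ephb1 window is chr9:102354644-102354943 on the minus strand, shown 5′ to 3′ with its single match, AGGTGT starting 55 bases before the start, in capitals.
Ephb1: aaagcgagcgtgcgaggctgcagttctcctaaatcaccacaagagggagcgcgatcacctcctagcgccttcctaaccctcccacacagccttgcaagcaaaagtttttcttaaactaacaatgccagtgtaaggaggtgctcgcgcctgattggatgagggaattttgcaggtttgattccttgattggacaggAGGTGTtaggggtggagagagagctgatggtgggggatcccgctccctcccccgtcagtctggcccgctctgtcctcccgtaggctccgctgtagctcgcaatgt
The Unc5b window is chr10:60831532-60831831 on the minus strand, with its single match, GATAA starting 156 bases before the start, in capitals.
Unc5b: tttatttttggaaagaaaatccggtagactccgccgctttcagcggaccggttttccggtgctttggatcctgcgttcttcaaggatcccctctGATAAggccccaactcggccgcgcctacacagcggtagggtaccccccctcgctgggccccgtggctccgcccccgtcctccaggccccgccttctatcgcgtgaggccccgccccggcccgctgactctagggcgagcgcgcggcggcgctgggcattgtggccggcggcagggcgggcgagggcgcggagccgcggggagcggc
AGGTGT was present in 13.7%, GATAA in 25.4% and AAGTG in 46.4% of 32841 promoter windows of the same length. Of the 32 members with a window used here (37 windows in all), 4 held AGGTGT, 6 held GATAA and 15 held AAGTG. Member windows on the chromosome that carries Dcc were left out, while the 32841 windows kept that chromosome. Efnb3, Ntn1, Rgma and Unc5d, which that rule does not concern, also had no window. The median GC content was 65.3% in the members' windows and 52.7% in all windows. A match of letters describes the window and shows no binding.

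Ephb3 and Ephb4 differed less. Ephb3 signals were 69.9, 179.7, 247.2 and 210.3 in Purkinje replicates 1 to 4 and 60.6, 75.6, 121.8 and 90.9 in the ventricular replicates. Purkinje replicates 2 to 4 lay above all ventricular arrays, and replicate 1 lay within their range. The log2 difference was 0.92 ± 0.38 (SE), with adjusted p = 0.187 without the block and 0.0163 with it. It was positive in 4 of 4 hearts, from 0.21 in heart 1 to 1.25 in heart 2.

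Ephb4, the receptor that marks venous endothelium, gave 302.8, 276.8, 299.8 and 213.2 in Purkinje replicates 1 to 4 and 264.9, 128.2, 125.4 and 165.2 in the ventricular replicates. Ventricular replicate 1 lay within the Purkinje range and the other ventricular arrays below it. The log2 difference was 0.73 ± 0.25 (SE), with adjusted p = 0.122 without the block and 0.0277 with it. Neither call was stable: with the block, Ephb3 passed only when heart 1 was the heart left out, Ephb4 only when heart 1 or heart 4 was, and neither passed with the block after quantile normalization or median centring (adjusted p = 0.0748 for Ephb3 and 0.226 for Ephb4 after centring).

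**Figure D2:**
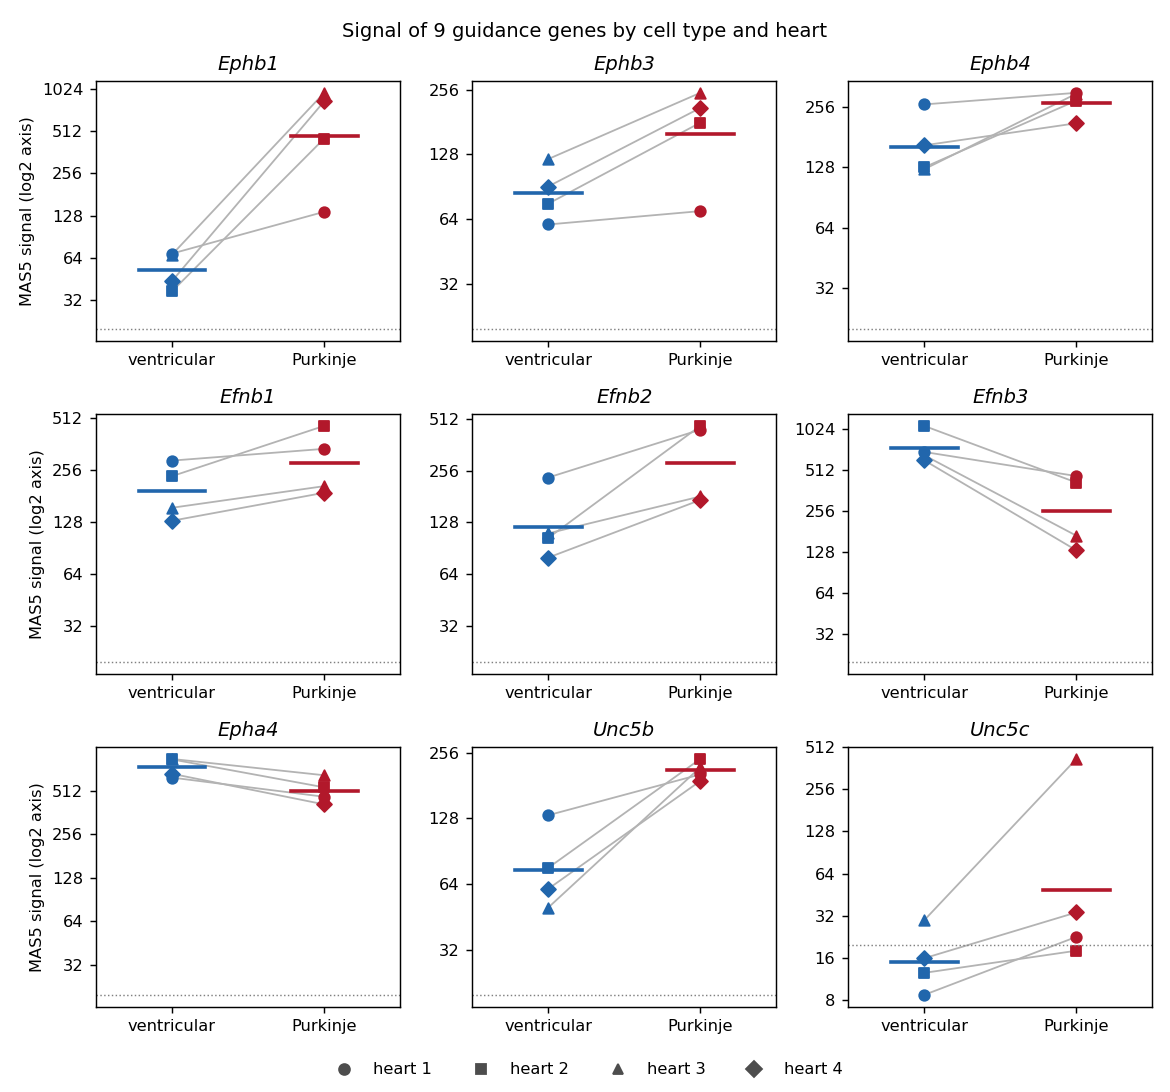
MAS5 signal (log2 axis) of the 9 genes that passed with the heart block, in ventricular and Purkinje arrays; each symbol shape is a heart, grey lines join the arrays of a heart, thick bars are geometric means and the dotted line is the testing limit of 19.9. Ephb1 and Unc5b show every Purkinje array above every ventricular array, Efnb3 shows the reverse, and the other 6 overlap.

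The 3 B-type ephrins did not move together. Efnb1 and Efnb2 rose and Efnb3 fell, each passing the threshold with the heart block and not in the same fit without it. Efnb2, the arterial ligand of EphB4, gave 441.8, 464.9, 181.1 and 172.8 in Purkinje replicates 1 to 4 and 233.1, 103.9, 110.6 and 80 in the ventricular replicates. Purkinje replicates 1 and 2 were far above replicates 3 and 4, and ventricular replicate 1 overlapped the lower Purkinje arrays, yet within each heart the Purkinje array was higher. The means were 315 ± 160 and 132 ± 68.7 (SD, n = 4 each), and the log2 difference was 1.23 ± 0.40 (SE), or 2.34-fold. Its adjusted p was 0.110 without the block and 0.00422 with it, and the blocked call held with any 1 heart left out. Without the block Efnb2 passed with ventricular replicate 1 left out (adjusted p = 0.0339) and with array weights (0.0475). The other Efnb2 probe sets above the limit gave 0.57, 1.23 and 1.42.

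Efnb1, another membrane-spanning ligand, gave 338, 458.7, 205.8 and 188.5 in Purkinje replicates 1 to 4 and 289.1, 235, 154.4 and 129.9 in the ventricular replicates. The groups overlapped, and hearts 1 and 2 were higher than hearts 3 and 4 in both cell types. The log2 difference was 0.54 ± 0.33 (SE), with adjusted p = 0.372 without the block and 0.0467 with it. The blocked call held only when heart 1 was the heart left out, and was lost with the block after quantile normalization or median centring.

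Efnb3, the third membrane-spanning ligand, had its higher signals in ventricular myocytes. Its signals were 463, 415, 168.6 and 131.6 in Purkinje replicates 1 to 4 and 696.6, 1083, 658.5 and 604.5 in the ventricular replicates. Every ventricular array lay above every Purkinje array, and Purkinje replicates 3 and 4 were the lowest. The means were 295 ± 169 in Purkinje cells and 761 ± 218 in ventricular myocytes (SD, n = 4 each), and the log2 difference was -1.53 ± 0.38 (SE), a 2.90-fold higher geometric mean in ventricular myocytes. The adjusted p was 0.0534 without the block and 0.00111 with it. By heart the log2 difference was -0.59, -1.38, -1.97 and -2.20. The blocked call held with any 1 heart left out, and the authors' deposited table gives an unadjusted p of 0.0136. Without the block Efnb3 passed with Purkinje replicate 1 left out (adjusted p = 0.0239), with array weights (0.0331), with 16 added to each signal (0.0461) and after median centring (0.00970).

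Groups that did not overlap were found for 2 members higher in Purkinje cells, Ephb1 and Unc5b, and 1 lower, Efnb3, beside 6.25% and 6.41% of all tested genes. In all 4 hearts alike, 7 members were higher and 3 lower in Purkinje cells, beside 21% and 17.2% of all genes.

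Among the EphA receptors, 4 of 9 could be tested, and Epha4 fell in the fit with the block. Epha4, which binds both ephrin classes, gave 463.7, 538.8, 652.7 and 410.8 in Purkinje replicates 1 to 4 and 628.9, 839.9, 845.7 and 668 in the ventricular replicates. Purkinje replicate 3 lay above ventricular replicate 1, and all other Purkinje arrays lay below all ventricular arrays. The means were 517 ± 105 and 746 ± 113 (SD, n = 4 each), and the log2 difference was -0.54 ± 0.18 (SE), 1.45-fold higher in ventricular myocytes. It was similar in size in each heart, at -0.44, -0.64, -0.37 and -0.70. The adjusted p was 0.111 without the block and 0.0103 with it, and the blocked call was lost without heart 2 (0.0636) or heart 4 (0.0552). All 5 Epha4 probe sets above the limit were lower in Purkinje cells, by -0.36 to -0.74, and the authors' deposited table gives the one used here an unadjusted p of 0.00501.

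The other tested EphA receptors did not pass in either fit. Epha7 signals were 22 to 101.4 in Purkinje cells and 21.6 to 45.1 in ventricular myocytes, a log2 difference of 0.71 (adjusted p = 0.392). A second Epha7 probe set above the limit gave 0.96 with groups that did not overlap, 30.9 to 57 against 10.5 to 27.4. Epha2 and Epha3 differed by -0.09 and 0.06, with 95% intervals of -1.50 to 1.32 and -0.76 to 0.89. The signals of Epha2 were 8.8 to 80.3 over the 8 arrays and those of Epha3 18.5 to 42.9.

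None of the 4 tested A-type ephrins, the lipid-anchored ligands, passed in either fit. Efna5, a repellent ligand in the retinotectal map, was 90.4 to 136.7 in Purkinje cells and 118.4 to 248 in ventricular myocytes, lower in 4 of 4 hearts, with a log2 difference of -0.57 (adjusted p = 0.227 without the block and 0.0642 with it). It passed, lower, with the block after quantile normalization or median centring, and its second probe set gave -0.61. Efna2 gave 6.7 to 84.8 on Purkinje arrays and 49.3 to 65.7 on ventricular arrays, a log2 difference of -1.51 (adjusted p = 0.230 without the block and 0.0710 with it). It too passed, lower, with the block after quantile normalization (0.0393) or median centring (0.00223). Its Purkinje replicates 1 and 4 were at 6.7 and 8.3, while heart 3 went the other way (0.37). With 16 added to each signal the Efna2 difference was -0.84, and a second Efna2 probe set, below the limit, gave -0.10. Efna1 and Efna3, which lie next to each other in the genome with Efna4 beside Efna3, gave 0.39 and 0.25. A second Efna1 probe set gave -0.39, so its direction depended on the probe set.

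Unc5 receptors, which mediate repulsion from netrins, held the second gene that passed without the block. Unc5b gave 203.5, 239.6, 219.3 and 189.9 in Purkinje replicates 1 to 4 and 132.3, 75.9, 49.9 and 60.8 in the ventricular replicates. The Purkinje arrays were close to each other and all lay above the ventricular arrays, of which replicate 1 was the highest. The means were 213 ± 21.4 and 79.7 ± 36.6 (SD, n = 4 each), and the log2 difference was 1.51 ± 0.28 (SE; 95% interval 0.89 to 2.14), or 2.86-fold. The adjusted p was 0.0217 without the block and 0.00209 with it, and by heart the log2 difference was 0.62, 1.66, 2.14 and 1.64. In the fit without the block, leaving out Purkinje replicate 2 (0.0625), Purkinje replicate 3 (0.0753), ventricular replicate 2 (0.0627), ventricular replicate 3 (0.0688) or ventricular replicate 4 (0.0814) ended the call. With the block it held with any 1 heart left out. A second Unc5b probe set, below the limit, differed by 1.81, and the authors' deposited table gives an unadjusted p of 0.00966. The promoter of Unc5b printed above held the GATAA core and neither of the other cores.

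Unc5c rested on 1 array. Its signals were 22.6, 18, 422.3 and 33.8 in Purkinje replicates 1 to 4 and 8.7, 12.5, 29.7 and 15.9 in the ventricular replicates. Purkinje replicate 3 stood far above all others, and the remaining arrays lay around the testing limit. The ventricular mean of 16.7 was below that limit, so the Purkinje arrays alone made the gene testable. The log2 difference was 1.71 ± 0.87 (SE), with adjusted p = 0.277 without the block and 0.0429 with it. Without heart 3 it was 1.00 with an adjusted p of 0.348, and it also did not pass with the block without heart 2 or heart 4, after quantile normalization or with 16 added. Unc5a gave 6.7 to 47.7 in Purkinje cells and 24.8 to 37.2 in ventricular myocytes, a log2 difference of -1.04 (adjusted p = 0.336). It passed, lower, with the block after median centring (adjusted p = 0.0268). The hearts were split, with 2 higher and 2 lower, and the difference was -0.51 with 16 added to each signal.

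The netrins and the attractive receptors did not pass in either fit. Netrin-1, the founding ligand of the family, gave 271.1 to 450 in Purkinje cells and 332.8 to 561.6 in ventricular myocytes, with a log2 difference of -0.37 (adjusted p = 0.344). It fell after median centring, with an adjusted p of 0.00602 in that scaling with the block, while a second probe set gave 0.09 as deposited. Netrin-4, found in basement membranes, was 78.1 to 217.6 against 60.3 to 178 and differed by 0.02, with a 95% interval of -0.82 to 0.85. Its second probe set gave -0.51.

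Neogenin (Neo1), the receptor shared by netrins and RGM proteins, was 739.1 to 1359 in Purkinje cells and 647.2 to 1158 in ventricular myocytes. The log2 difference was 0.06, with a 95% interval of -0.44 to 0.56, and 5 Neo1 probe sets above the limit ran from -0.11 to 0.76. Dcc, the axonal netrin receptor, gave 15.8 to 42.9 against 11.2 to 31.2, a log2 difference of 0.64 (adjusted p = 0.461). The neogenin ligands Rgma and Rgmb differed by 0.12 and 0.33 (adjusted p = 0.866 and 0.408), and 5 Rgmb probe sets above the limit were all positive, from 0.29 to 0.65. Ntng1, a membrane-anchored relative of netrins that binds other partners, differed by 0.58 (adjusted p = 0.623), and Unc50 by -0.04 (adjusted p = 0.907).

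The 12 members below the limit were Efna4, Epha1, Epha5, Epha6, Epha8, Epha10, Ephb6, Ntn3, Ntn5, Ntng2, Unc5cl and Unc5d. Epha6 gave 18.5, 30.7, 39 and 65 in Purkinje replicates 1 to 4 and 0.9, 1.9, 19.2 and 9.7 in the ventricular replicates. All 4 hearts had more signal in Purkinje cells, and only ventricular replicate 3 reached into the Purkinje range. With no filter on low signals its log2 difference was 3.04 with an adjusted p of 0.110, and the authors' deposited table gives an unadjusted p of 0.0392. In that unfiltered fit none of the 12 passed, and their adjusted p ran from 0.110 to 0.961. Across all 37 members, 5 had an unadjusted p under 0.05 in the authors' deposited table, as did 16% of all 18193 genes. They were Efnb3, Epha4, Epha6, Ephb3 and Unc5b.

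Other probe sets of the same genes allowed a check on the choice of probe set. The 37 genes had 82 probe sets, 48 of them above the limit. Of the 11 genes with more than 1 probe set above the limit, 5 had probe sets that differed in direction: Efna1, Neo1, Ntn1, Ntn4 and Unc50. None of those 5 was among the 9 genes that passed with the block. Of the 9, however, only Efnb1, Efnb2 and Epha4 had more than 1 probe set above the limit. Ephb1, Ephb3, Ephb4 and Efnb3 each rested on the only probe set of the gene, and Unc5b and Unc5c had 1 above the limit, so the check could not cover them. Efnb1 probe sets gave 0.19, 0.54 and 0.80, and the last of these did not overlap between groups (114.4 to 206.7 against 63.5 to 109).

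**Figure D3:**
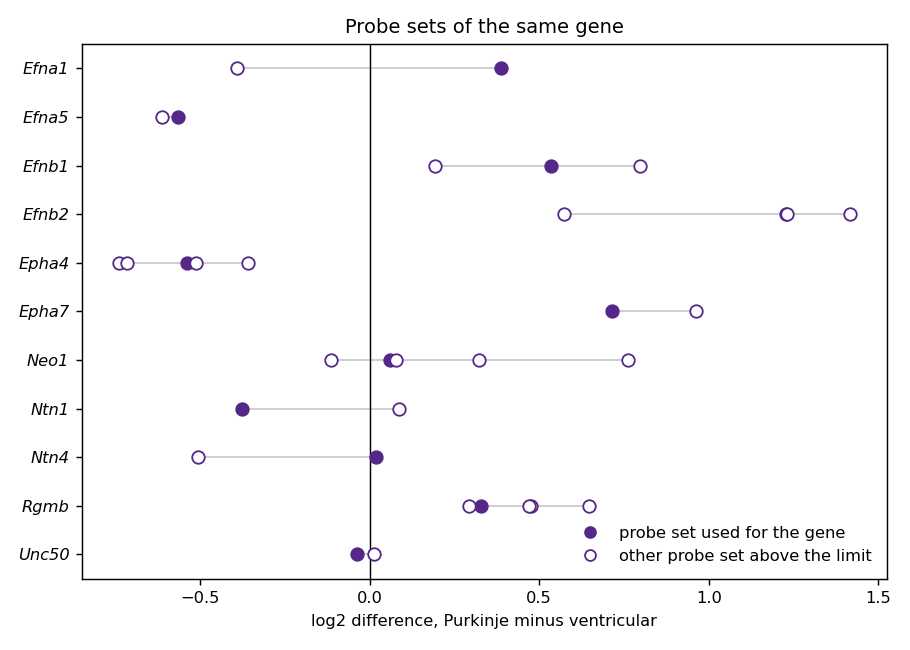
Log2 difference, Purkinje cells minus ventricular myocytes, of every probe set above the limit for the genes with more than 1 such probe set; the probe set used for the gene is marked. Epha4 lies below 0 with all 5 probe sets and Efnb2 above 0 with all of its own, while Efna1, Neo1, Ntn1, Ntn4 and Unc50 fall on both sides of 0.

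Genes that act with these ligands and receptors were read from lists drawn from textbook knowledge. Of 31 listed partners of Eph receptors and ephrins (27 on the array, 24 tested), 0 passed limma's threshold without the block, with 8 higher and 0 lower at an unadjusted p under 0.05, where 12.8% and 9.2% of all genes lay. With the block, 6 rose and 0 fell, 25% beside the 9.64% of all genes. The 6, named after their values were seen, were the ephrin-cleaving protease Adam10, the guanine nucleotide exchange factor Arhgef15, the Rac GTPase-activating protein Chn1, the Src-family kinase Yes1, the ephrin-B adaptor Grip1 and the cytoskeletal kinase Rock1. Grip1 had the largest difference of them, with a log2 difference of 1.56 ± 0.46 (SE; adjusted p = 0.0863 without and 0.0257 with the block), followed by Arhgef15 at 1.31 ± 0.49 (0.154 and 0.00526). With the block and 1 heart left out, 0 of the partners passed without heart 2, Arhgef15 alone without heart 3 or heart 4, and 5 without heart 1, Grip1 among them. Grip1 signals were 23.7, 45.6, 109.7 and 42.8 in Purkinje replicates 1 to 4 and 12.3, 21.3, 16.9 and 15.3 in the ventricular replicates. Every Purkinje array lay above every ventricular array, with Purkinje replicate 3 the highest. The ventricular mean of 16.45 lay below the testing limit, so Grip1 reached that limit only through its Purkinje arrays. Arhgef15 signals were 361.6, 286.5, 181.7 and 119.6 in Purkinje replicates 1 to 4 and 232.4, 93.5, 40.1 and 68.3 in the ventricular replicates. The ventricular array of heart 1 lay within the Purkinje range and the other ventricular arrays below it. The median log2 difference of the 24 was 0.33, beside 0.05 for all genes. After median centring with the block, 2 rose and 3 fell, so the direction of the list depended on the scaling.

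Of 32 listed partners of netrins, Unc5 receptors and RGM proteins (30 on the array, 26 tested), 0 passed without the block. At an unadjusted p under 0.05, 6 were higher and 1 lower, where 12.8% and 9.2% of all genes lay (22% in either direction). With the block, 3 rose and 1 fell, 11.5% and 3.85%, near the 9.64% and 7.48% of all genes. The 3, again named after their values were seen, were the ligand Bmp6 (1.17 ± 0.40, SE), the actin regulator Evl (1.02 ± 0.31) and the BMP effector Smad1 (0.58 ± 0.19), and the one that fell was the actin-binding protein Ablim1 (-0.39 ± 0.13). The adjusted p with the block was 0.00451 for Bmp6, 0.00403 for Evl, 0.0157 for Smad1 and 0.0345 for Ablim1. Evl was 293.5, 314, 686.7 and 755.6 in Purkinje replicates 1 to 4 and 185.8 to 264.2 in ventricular myocytes, with no overlap. The median of the 26 was 0.23. After median centring with the block it was -0.17, with 2 partners higher and 3 lower and Smad1 no longer among them. Bmp6 and Evl passed with the block whichever heart was left out, while Ablim1 passed only without heart 1.

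Some members are set beside marker lists array by array, in pairings chosen after the values were seen. Relative to the mean of the 8 arrays, the 13 conduction system markers stood on average at 0.52, 1.47, 1.77 and 1.88 log2 units in Purkinje replicates 1 to 4 and between -1.53 and -1.13 in ventricular myocytes. Ephb1 and Ephb3 likewise had their lowest Purkinje value in replicate 1. The 20 endothelial markers stood at 1.27, 1.08, 0.24 and -0.23 in Purkinje replicates 1 to 4 and at 0.49, -0.68, -1.20 and -0.97 in the ventricular replicates. Efnb1 and Efnb2 had their highest values in Purkinje replicates 1 and 2, as that list did, and Efnb1, Efnb2, Ephb4 and Unc5b were highest among ventricular arrays in replicate 1. Unc5b (0.70, 0.93, 0.80 and 0.60) and Ephb4 (0.53, 0.40, 0.51 and 0.02) did not show the fall of the list mean between Purkinje replicates 2 and 3. Genes of the list differed in this. Signals in Purkinje replicates 2 and 3 were close for Pecam1 (374.3 and 359.1) and Erg (306.5 and 302.1), and the other markers of the list fell more. In Purkinje replicates 1 to 4, the 13 smooth muscle and pericyte markers stood at 1.03, 0.89, 0.20 and 0.15. Their ventricular values were 0.03, -0.66, -0.63 and -1.01. The 8 arterial and venous endothelial markers stood at 1.045, 1.20, 0.38 and -0.36, with ventricular values of 0.46, -0.51, -1.11 and -1.10. High values in Purkinje replicates 1 and 2 were therefore not particular to the endothelial list.

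Of the 20 endothelial markers, 2 rose without the block, Cdh5 and Egfl7, and 18 with it. The summed signal of 13 smooth muscle and pericyte markers was 11590 to 17440 in Purkinje cells and 9220 to 12050 in ventricular myocytes. Of the 13, 3 rose without the block, and with it 10 rose and 1, Des, fell. Des (mean 2550 in Purkinje cells and 3455 in ventricular myocytes) and Abcc9 (3562 and 3619) had large signals in that sum and did not rise. For 12 fibroblast markers the summed signal was 4684 to 5465 and 1890 to 3105, with 2 rising without the block and 8 with it. For 8 tested leukocyte markers it was 602.9 to 1610 and 518.9 to 838.5, with 0 passing without the block and 2 rising with it. The 15 cardiomyocyte markers summed to 110500 to 117500 in Purkinje cells and 111900 to 137400 in ventricular myocytes, with 1 lower without the block and 3 with it. Of 11 neural and glial markers on the array, 3 were above the limit and 0 passed in either fit. Of 4 tested endocardial and valve markers, 0 passed without the block, and with it 0 rose and 1 fell. The part of these lists in the differences of Efnb1, Efnb2, Ephb4, Unc5b and the other members was not tested.

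**Figure D4:**
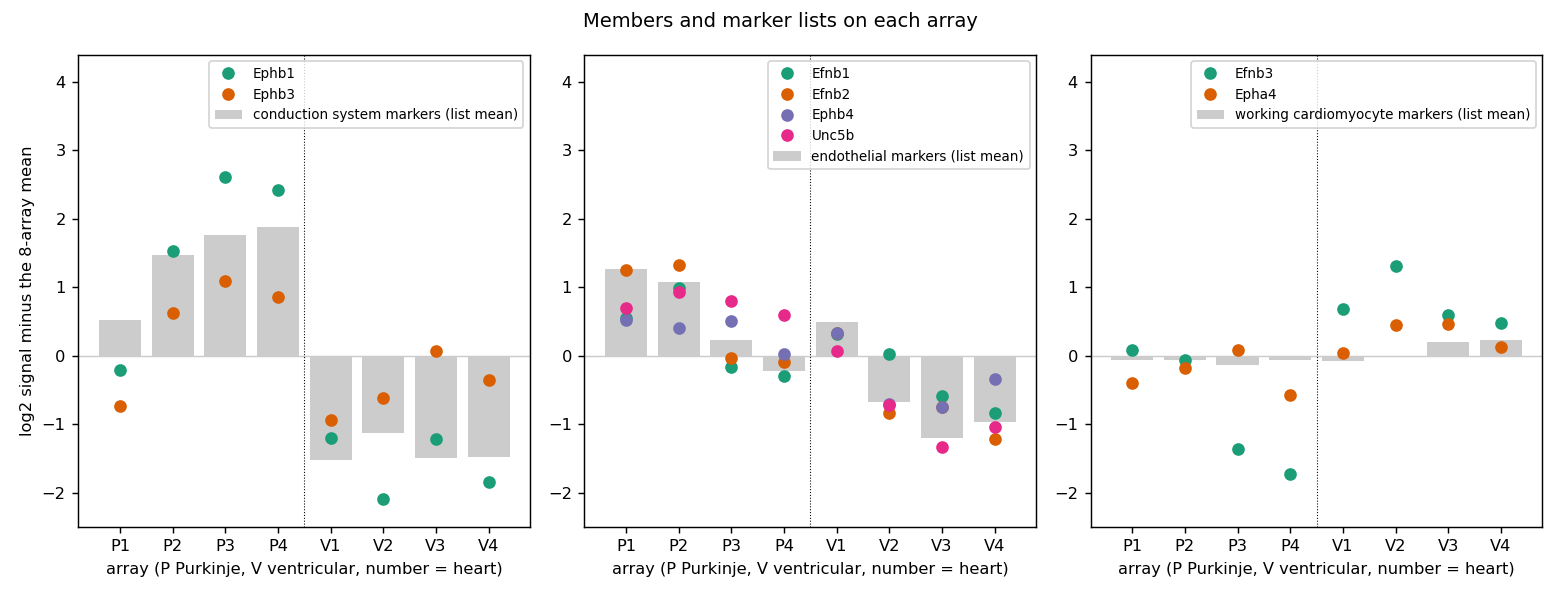
Log2 signal minus the mean of the 8 arrays, by array (P Purkinje, V ventricular, number is the heart), for Ephb1 and Ephb3 beside the conduction system markers, for Efnb1, Efnb2, Ephb4 and Unc5b beside the endothelial markers, and for Efnb3 and Epha4 beside the cardiomyocyte markers; dots are genes and grey bars the mean of each list. The endothelial bars descend from 1.27 to -0.23 over Purkinje replicates 1 to 4, and the cardiomyocyte bars stay between -0.14 and 0.23.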

How the data were processed

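The 8 arrays comprised 4 of Purkinje cells and 4 of ventricular myocytes. The deposited values are MAS5 intensity signals, per the submitters' processing notes; the MAS5 version is not given in the sources used here. The 2% trimmed mean was 150.001 on every array. The authors also deposited a ratio and a p-value for each probe set, and that p equalled a paired test on linear signals within 1e-06 in 45101 of 45101 probe sets. Of these, 64 control probe sets were left out and 34945 had 1 gene symbol. Signals of 0 (10 values, none in tested genes) were set to 0.1 before log2. Genes above the 40th percentile of mean log2 signal (4.31) were tested by limma (version 3.58.1, under R 4.3.3), two-sided, with lmFit, a trended eBayes and Benjamini-Hochberg adjustment over 12318 genes. The number of arrays limits the precision.

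The main fit had no block. The replicate number was taken to mark the heart, which no label states outright: the design gives 4 hearts, the deposited p is paired, and the residuals of same-numbered arrays correlated at 0.381, 0.234, 0.267 and 0.275, each the highest for its number. Arrays of hearts 1 and 2, and of hearts 3 and 4, also correlated across numbers (0.09 and 0.197, 0.21 and 0.225). The members and lists were chosen with earlier results of these data known. Members that passed in either fit are given on every array, and the others by range or difference. Partners that passed without the block were to be named, and there were none. Alternatives covered the block, scaling, filter, probe set, log offset, variance model and arrays or hearts left out. The script was tested on simulated data. Promoters came from RefSeq.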

Additional observations from a re-analysis of the deposited data

Results flagged for a closer look

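Among the 74 groups of 4 arrays examined (37 members in each cell type), 6 had 1 array far from the other 3 on the signal or the log2 scale, 4 on the signal scale and 5 on the log2 scale. On a single scale, chance flags about 1 in 20 such groups. Unc5c on Purkinje replicate 3 had a signal of 422.3, against 18 to 33.8 on the other Purkinje arrays. Unc5a on ventricular replicate 2 had 24.8, against 36.3 to 37.2. Epha3 on ventricular replicate 1 had 18.5, against 28.6 to 30.9. The remaining 3 concerned genes below the testing limit. Efna4 had 10.7 on ventricular replicate 1, against 24.1 to 25.3. Ntng2 had 10.8 on ventricular replicate 2, against 41.9 to 50.3. Unc5d had 1.5 on ventricular replicate 1, against 0.5 to 0.6.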

How the results depend on the processing

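No member that passed in either fit changed direction in any of the 25 alternatives under which it was tested. With the replicate block, which pairs the arrays of a heart, 9 members passed in place of 2, 7 Eph and ephrin members in place of 1, 2 of the netrin group in place of 1, 6 Eph partners and 4 netrin partners in place of 0, and 2108 genes in all in place of 365. Without the block, members that passed numbered 6 after median centring, 4 with array weights, and 1 each when probe sets were averaged within genes and without the variance trend. For Eph and ephrin members the counts were 4 after centring, 3 with weights, and 2 each at the 60th percentile and with 16 added. For the netrin group they were 2 after centring, and 0 with averaged probe sets or no trend. Eph partners gave 1 with averaged probe sets or with weights, and netrin partners 2 after centring. All genes gave 155 after quantile normalization, 2603 after centring, 126 without the trend and 937 with weights. The block with quantile normalization gave 7 members (6 Eph and ephrin), 6 and 4 partners, and 1524 genes. The block with 16 added gave 8 members (7 Eph and ephrin), 6 and 5 partners, and 2235 genes. The block with median centring, an alternative chosen after seeing the data, gave 10 members (6 Eph and ephrin, 4 of the netrin group), 5 and 5 partners, and 4500 genes. The cause of these shifts was not tested.

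With 1 array left out, members that passed ranged from 0 (without Purkinje replicate 3 or ventricular replicate 4) to 4, Eph and ephrin members from 0 to 3, the netrin group from 0 to 1, both partner lists from 0 to 2, and all genes from 38 (without Purkinje replicate 3) to 957 (without ventricular replicate 1). With the block and 1 heart left out, members ranged from 4 (without heart 2) to 11 (without heart 1), Eph and ephrin members from 3 to 9, the netrin group from 1 to 2, Eph partners from 0 to 5, netrin partners from 2 to 6, and all genes from 811 to 2415 (811 without heart 2, 885 without heart 3, 1107 without heart 4 and 2415 without heart 1). Unc5b alone lost its call with the mean of its probe sets (adjusted p = 0.0587) and without the variance trend (0.0507). The 12 members below a signal of about 19.9 were compared only without the filter.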
